A study of Mus musculus with 14 samples.

Results

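The genes described here run the calcium cycle of the heart muscle cell at the sarcoplasmic reticulum and at the surface membrane next to it. They are Atp2a2, Pln, Sln, Ryr2, Casq1, Casq2, Trdn, Slc8a1, Cacna1c and Jph2, 10 of the 54532 gene IDs in the count table, each found by its symbol and each with a single ID. Polyadenylated RNA was sequenced from ventricular tissue collected 1 week after surgery in a study of the chemokine CCL24 and cardiac fibrosis. The surgery was transverse aortic constriction (TAC), a ligature on the aorta that raises the pressure load of the left ventricle, or a sham operation. The 4 groups were CCL24 KO mice after TAC (n = 4 libraries), Wildtype mice after TAC (n = 6), CCL24 KO mice after sham (n = 2) and Wildtype mice after sham (n = 2), called KO TAC, WT TAC, KO sham and WT sham below. The number of libraries equals the number of mice in the design text, so 1 library stands for 1 mouse. The sources used here do not give the strain, the age or the way the CCL24 KO allele was made, and the tissue was whole ventricle, so every level is an average over heart muscle cells and all other cells.

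At each beat the L-type channel, whose pore is encoded by Cacna1c, lets a little calcium into the cell, and this calcium opens the ryanodine receptor encoded by Ryr2, which releases the store of the reticulum. Jph2 encodes junctophilin, which holds both membranes together at the junction, Trdn encodes triadin, which links the receptor to the store, and Casq2 and Casq1 encode the cardiac and the skeletal muscle form of calsequestrin, the calcium buffer of the store. For relaxation, the pump SERCA2, encoded by Atp2a2, returns calcium to the store under the brake of phospholamban (Pln) or, in atria, sarcolipin (Sln), while the sodium-calcium exchanger encoded by Slc8a1 moves the rest out of the cell. In failing hearts of several species a lower pump level is a long known feature.

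On GRCm38 the genes lie on 9 chromosomes. Atp2a2 lies at chr5:122453513-122502225 (minus strand), Pln at chr10:53337667-53345987 (plus), Sln at chr9:53850164-53854560 (plus), Ryr2 at chr13:11553102-12106945 (minus) and Casq1 at chr1:172209894-172219868 (minus). Casq2 lies at chr3:102086415-102146514 (plus), Trdn at chr10:33080554-33476709 (plus), Slc8a1 at chr17:81373105-81738377 (minus), Cacna1c at chr6:118587240-119196418 (minus) and Jph2 at chr2:163336242-163397993 (minus). The bases upstream of the start site are shown for 3 of them, because Casq1 was the member called higher after TAC, Casq2 is its close relative in the same store, and Slc8a1 had one of the largest falls. The windows are the 250 bases before the RefSeq start on GRCm38.p6, read 5′ to 3′ on the strand of the gene, with E-box letters (CANNTG, both strands) in capitals. They are chr1:172219896-172220145 for Casq1, chr3:102086165-102086414 for Casq2 and chr17:81738388-81738637 for Slc8a1.
Casq1: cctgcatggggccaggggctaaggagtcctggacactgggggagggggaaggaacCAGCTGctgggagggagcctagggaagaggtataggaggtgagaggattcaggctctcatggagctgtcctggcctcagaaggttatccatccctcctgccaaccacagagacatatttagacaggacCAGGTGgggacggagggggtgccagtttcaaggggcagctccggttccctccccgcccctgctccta
Casq2: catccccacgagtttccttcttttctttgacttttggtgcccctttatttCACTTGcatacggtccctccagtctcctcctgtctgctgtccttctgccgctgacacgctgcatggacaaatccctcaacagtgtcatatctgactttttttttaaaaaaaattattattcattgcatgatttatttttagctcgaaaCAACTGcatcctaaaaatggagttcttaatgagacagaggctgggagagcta
Slc8a1: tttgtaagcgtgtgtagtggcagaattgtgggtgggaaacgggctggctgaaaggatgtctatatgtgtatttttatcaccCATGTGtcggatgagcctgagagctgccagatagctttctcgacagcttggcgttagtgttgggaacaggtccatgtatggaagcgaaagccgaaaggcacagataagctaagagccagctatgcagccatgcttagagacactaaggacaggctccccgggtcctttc
The windows of Casq1, Casq2 and Slc8a1 held 2, 2 and 1 E-boxes, and 66.2% of 32851 promoters in the RefSeq table held at least 1. AGATAA, letters known from sites of GATA factors and searched on both strands, was found in 1 place for Slc8a1, outside its E-box, and not for Casq1 or Casq2, against 9.99% of all promoters. TATAAA, the TATA box letters, was found on neither strand of these windows, against 12.4% of all promoters. These matches describe letters in a short window and nothing more. Atp2a2, Sln and Trdn had no entry in the promoter table.

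Library totals were 17072262 to 33123052 counts, and 3 counts stood for 0.0906 to 0.176 CPM, counts per library scaled to a common total. Ccl24, the deleted gene, had 3 to 8 counts in the 6 KO libraries and 56 to 105 counts in 7 of the 8 WT libraries, while the library labelled WT TAC replicate 1 held 3 counts. Its Ccl24 count goes against its label, so the TAC results of the members are also given without that library where this changes a call, a direction or an overlap of groups or moves a log2 value by over 1.5 times. Markers of heart muscle cells other than the 10 genes (14 structural genes such as Myh6 and Tnni3) were abundant in every library, at 82790 to 94550 CPM in KO TAC and 68550 to 88400 CPM in WT TAC, against 92850 to 96340 CPM in KO sham and 86270 to 87010 CPM in WT sham. The summed level of 9 fibroblast markers was 4406 to 6010 CPM in KO TAC and 6051 to 11570 CPM in WT TAC, against 4555 to 4986 CPM in KO sham and 5320 to 5482 CPM in WT sham. The 8 macrophage markers summed to 301 to 407 CPM in KO TAC and 353 to 624 CPM in WT TAC, against 276 to 281 CPM in KO sham and 294 to 312 CPM in WT sham. In such tissue, fewer heart muscle cells and less RNA per cell cannot be told apart.

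Compared per kilobase of exon, phospholamban and the pump stood far above the other members in all 4 groups, and sarcolipin was close to absent. In WT sham hearts Pln had 1759 ± 13.4 CPM per kilobase and Atp2a2 1627 ± 34.0 (SD, n = 2). Casq2 came next at 302 ± 5.13, followed by Jph2 at 140.0 ± 6.23, all in CPM per kilobase. Casq1 (40.8 ± 0.381), Ryr2 (33.3 ± 1.01) and Trdn (33.0 ± 0.374) lay close together, and Ryr2 and Trdn did not differ beyond their spread. Cacna1c had 12.8 ± 0.0538 and Slc8a1 4.24 ± 0.185 CPM per kilobase. In KO TAC hearts the level per kilobase was 1474 ± 111 for Pln and 960 ± 143 for Atp2a2 (SD, n = 4). In WT TAC hearts it was 1238 ± 145 for Pln and 884 ± 209 for Atp2a2 (SD, n = 6), where the ranges of both genes overlap. In KO sham hearts Casq1 stood below Trdn and Ryr2, at 20.6 ± 0.575 CPM per kilobase (SD, n = 2), and in the other 3 groups above both. The lengths are those of all annotated exons together (28790 bases for Ryr2, 21191 for Cacna1c and 18807 for Slc8a1), so levels of genes with many alternative exons are understated.

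**Figure D1:**
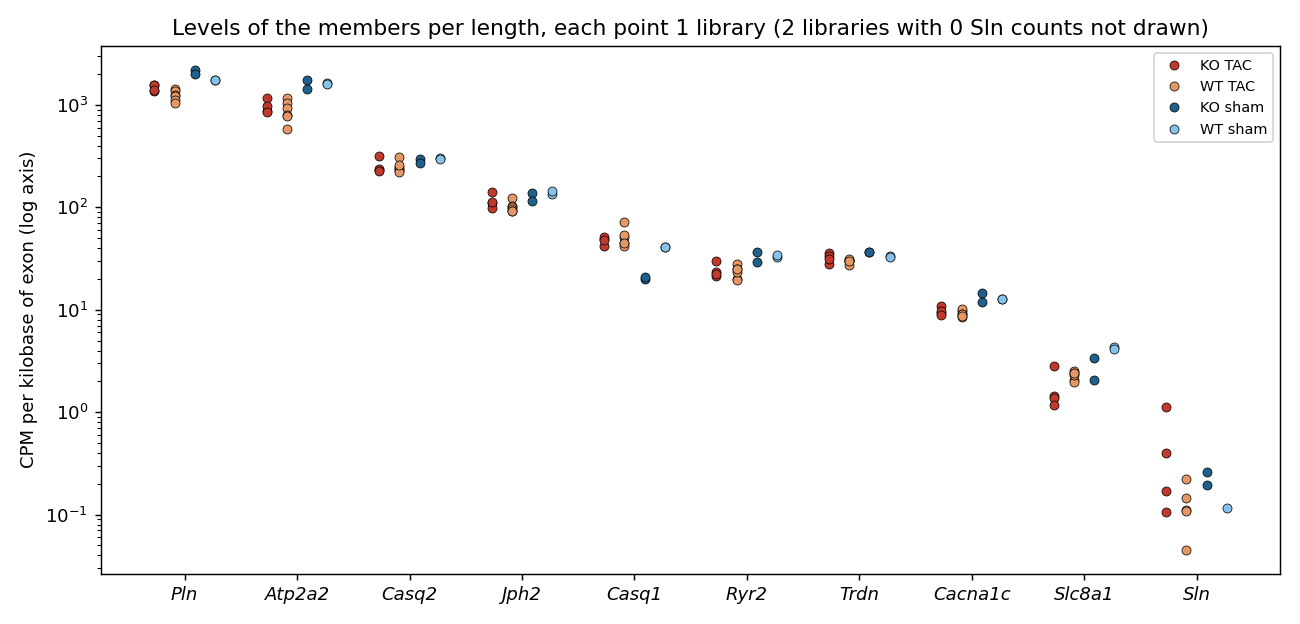
Level of each member per kilobase of exon (CPM per kilobase, logarithmic axis), each point 1 library, with KO TAC, WT TAC, KO sham and WT sham side by side. Pln is 1038 or higher and Atp2a2 576 or higher in every library, and Sln is 1.13 or lower.

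After constriction, the transcripts of the pump, its brake, the release channel, the L-type channel, the exchanger and junctophilin were lower in WT hearts, and no member rose past the test there. In WT TAC against WT sham, 6 of 10 members were lower (Atp2a2, Pln, Ryr2, Slc8a1, Cacna1c and Jph2) and 0 were higher. Of all 15876 genes tested, 12.2% were called in that comparison, 5.8% as lower and 6.36% as higher. In KO TAC against KO sham, 2 members were lower (Pln and Cacna1c) and 1, Casq1, was higher. Of all genes, 4.08% were called there, 1.73% as lower and 2.36% as higher. TAC and sham libraries did not overlap for 4 members lower and 1 higher after TAC in KO hearts, beside 17.6% and 17% of all genes, and for 7 lower and 1 higher in WT hearts, beside 16.6% and 16.3%. These became 8 lower and 1 higher in WT hearts without the library labelled WT TAC replicate 1, beside 20.3% and 20.2% of all genes. The median log2 fold change of the 10 members was -0.31 in KO hearts and -0.47 in WT hearts, beside -0.01 and 0.01 for all genes tested. Calls came from the quasi-likelihood test of edgeR with Benjamini-Hochberg adjusted p-values over all genes and a threshold of 0.05. That 6 members passed in WT hearts and 3 in KO hearts is no test of a difference between the genotypes, which the interaction further below addresses.

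Among the genes that refill the store, the pump was lower after TAC in both genotypes, past the test in WT hearts. Atp2a2 had 7043, 5260, 5910 and 5149 CPM in the KO TAC libraries and 3502 to 7075 CPM in WT TAC, with a median of 5256. It had 10690 and 8707 CPM in KO sham and 10040 and 9748 CPM in WT sham. All TAC libraries lay below the sham libraries of their genotype. The log2 fold change was -0.73 (SE 0.22, adjusted p = 0.0682) in KO hearts, which missed the threshold, and -0.88 (SE 0.20, adjusted p = 0.0155) in WT hearts. Without the library labelled WT TAC replicate 1 the KO value stayed at -0.73 and passed, with an adjusted p of 0.0401 from edgeR. That library is in neither KO group and acts there through the spread shared by all groups. With each library left out in turn, the KO fall passed in 3 of 14 fits. It passed in 3 of the 8 other settings.

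Pln, whose protein slows the pump until it is phosphorylated, had 4347, 3781, 4312 and 3822 CPM in KO TAC and 2864 to 3927 CPM (median 3401) in WT TAC. Its sham levels were 6057 and 5569 CPM in KO hearts and 4880 and 4828 CPM in WT hearts. No TAC library reached a sham library of its genotype. The fall was nearly equal in both genotypes, with a log2 change of -0.52 (SE 0.14, adjusted p = 0.0484) in KO hearts and -0.51 (SE 0.13, adjusted p = 0.0234) in WT hearts. On GRCm38, exons of Pln share 1644 of 2759 bases with Gm47644 and 141 with Cep85l on the opposite strand, and it is not given whether counting used strand, so reads of these genes cannot be told apart there. Gm47644 had 123 and Cep85l 4557 counts over all libraries, against 1335998 for Pln.

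Sln could hardly be measured in these ventricles. It had 5, 4, 12 and 26 counts in the KO TAC libraries and 0 to 8 counts in WT TAC, against 5 and 7 counts in KO sham and 0 and 3 counts in WT sham. The 26 counts of KO TAC replicate 5 have an exact 95% Poisson interval of 17.0 to 38.1, which covers counting error only, and lie above every other library. Values near 3 counts allow no fold change, and Sln passed in none of the comparisons (adjusted p = 0.083 for KO TAC against WT TAC in edgeR). Of 9 other atrial markers, Myl7, a myosin light chain, was also close to 0, with 0.175 to 0.862 CPM in KO TAC and 0.184 to 1.14 CPM in WT TAC, against 0 to 0.147 CPM in KO sham and 0.0427 to 0.152 CPM in WT sham. The 9 markers together summed to 76.4 to 87.8 CPM in KO TAC and 95.3 to 112 CPM in WT TAC, against 101 to 111 CPM in KO sham and 98.0 to 102 CPM in WT sham. The list as a whole was not near 0, but a few genes carried much of its sum. Kcnj3 averaged 22.8 CPM in KO TAC, 18.2 in WT TAC, 51.0 in KO sham and 47.6 in WT sham. Dkk3 averaged 11.6 CPM in KO TAC and 37.8 CPM in WT TAC, against 4.94 and 11.3 CPM in KO and WT sham. Group means were 0.073 to 0.10 CPM for Bmp10 and 1.30 to 1.68 CPM for Mybphl. With both genotypes averaged, 3 of the 8 tested atrial markers were called higher after TAC in edgeR and 1 lower, beside 24.2% of all genes called. The lower one was Kcnj3 (-1.28 on the log2 scale, SE 0.24, adjusted p = 0.00338). Myl7 was among the higher (adjusted p = 0.020), but its sham levels lay near 3 counts, so no size of its change is given.

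Slc8a1, the exchanger that clears calcium across the surface membrane, fell about as far as the pump in WT hearts and varied widely in KO hearts. It had 52.6, 26.9, 25.8 and 22.1 CPM in KO TAC and 37.2 to 47.4 CPM (median 44.3) in WT TAC. Sham levels were 64.1 and 38.8 CPM in KO hearts and 82.2 and 77.3 CPM in WT hearts. Groups overlapped in KO hearts because KO TAC replicate 1 lay above KO sham replicate 2, and did not overlap in WT hearts. The log2 fold change was -0.69 (SE 0.28, adjusted p = 0.185) in KO hearts and -0.90 (SE 0.26, adjusted p = 0.0421) in WT hearts. The value in KO hearts rests on single libraries. Without KO TAC replicate 1 it was -1.05 and passed, with an adjusted p of 0.00662, and without KO sham replicate 1 it was -0.28 (adjusted p = 0.828).

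Of the genes of calcium entry and release, Cacna1c fell in both genotypes and Ryr2 in WT hearts. Cacna1c had 228, 198, 206 and 189 CPM in KO TAC and 181 to 215 CPM (median 192) in WT TAC. It had 312 and 254 CPM in KO sham and 271.3 and 269.7 CPM in WT sham. TAC and sham libraries were separate in both genotypes, and the log2 fold change was -0.46 (SE 0.11, adjusted p = 0.0263) in KO hearts and -0.47 (SE 0.10, adjusted p = 0.0138) in WT hearts. Ryr2 had 854, 611, 673 and 638 CPM in KO TAC and 564 to 804 CPM (median 697) in WT TAC, against 1043 and 839 CPM in KO sham and 938 and 979 CPM in WT sham. The TAC and sham ranges of Ryr2 overlapped in KO hearts and were separate in WT hearts. Its log2 fold change was -0.44 (SE 0.16, adjusted p = 0.128) in KO hearts and -0.50 (SE 0.15, adjusted p = 0.0415) in WT hearts. These transcripts are long, and genes with 0.5 to 2 times the exon length of Ryr2 had a median log2 fold change of -0.15 in KO hearts and -0.13 in WT hearts. RNA quality was not measured, and its part in these falls was not tested.

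Of the structural proteins of the junction, junctophilin fell in WT hearts, and triadin passed in neither genotype. Jph2 had 603, 468, 423 and 482 CPM in KO TAC and 391 to 527 CPM (median 419) in WT TAC, against 582 and 495 CPM in KO sham and 577 and 614 CPM in WT sham. The KO groups overlapped, with KO TAC replicate 1 above both KO sham libraries, and the WT groups did not. Its log2 fold change was -0.12 (SE 0.15, adjusted p = 0.673) in KO hearts and -0.47 (SE 0.14, adjusted p = 0.0367) in WT hearts. The difference between those changes, 0.34 (SE 0.20, adjusted p = 0.997), did not pass. Trdn had 332, 262, 313 and 292 CPM in KO TAC and 256 to 294 CPM (median 281) in WT TAC, against 341 and 340.4 CPM in KO sham and 311 and 306 CPM in WT sham. All TAC libraries lay below sham in both genotypes, but the log2 fold changes of -0.18 (SE 0.10, adjusted p = 0.321) in KO hearts and -0.15 (SE 0.10, adjusted p = 0.317) in WT hearts did not pass.

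**Figure D2:**
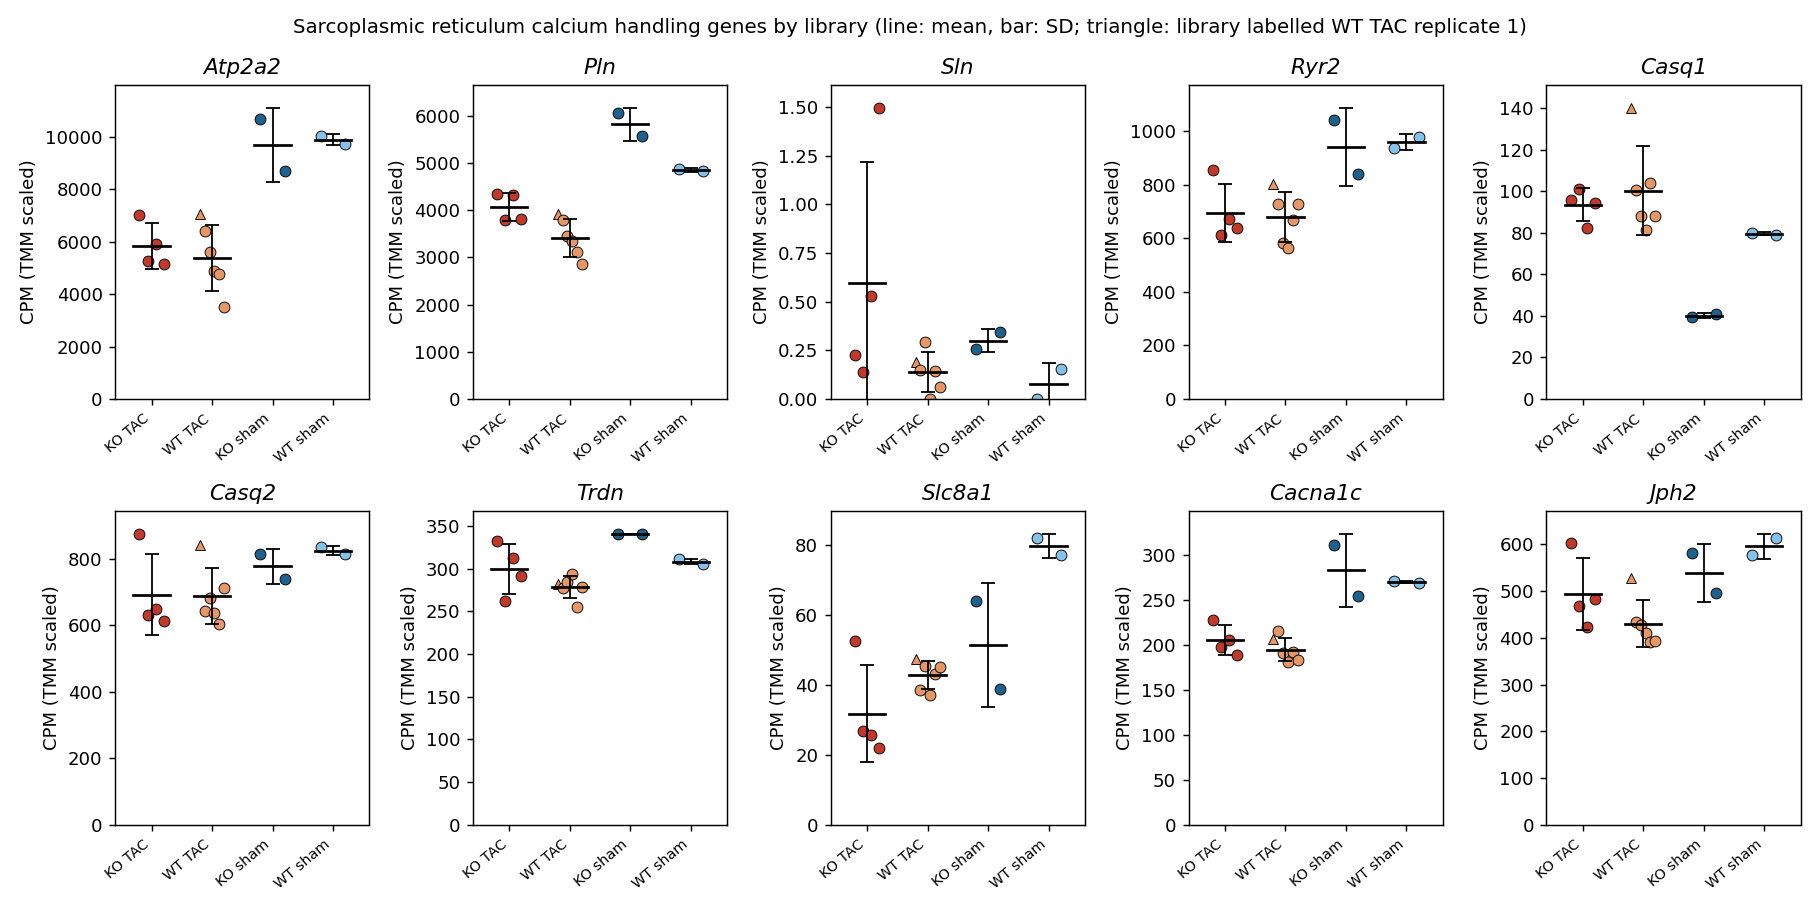
CPM of the 10 members in each library, by group in the order KO TAC, WT TAC, KO sham, WT sham. Lines are means, bars are SD, and the triangle is the library labelled WT TAC replicate 1. Atp2a2, Pln and Cacna1c are lower in every TAC library than in the sham libraries of the same genotype, and Casq1 is near 40 CPM in KO sham and 79.1 CPM or more elsewhere.

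Casq2, the cardiac calsequestrin, had 875.3, 632.3, 649.7 and 614.2 CPM in KO TAC and 604 to 841 CPM (median 663) in WT TAC, against 814 and 741 CPM in KO sham and 835 and 815 CPM in WT sham. TAC and sham libraries overlapped in both genotypes, and its log2 fold changes of -0.17 (SE 0.15, adjusted p = 0.574) in KO hearts and -0.26 (SE 0.14, adjusted p = 0.223) in WT hearts did not pass. The overlap in WT hearts came from the library labelled WT TAC replicate 1, without which every WT TAC library lay below WT sham and the log2 value was -0.33 (adjusted p = 0.0845). Casq1, the form that prevails in skeletal muscle, had 96.05, 101, 82.5 and 94.5 CPM in KO TAC and 81.3 to 140.1 CPM (median 94.5) in WT TAC. It had 39.4 and 40.9 CPM in KO sham and 80.2 and 79.1 CPM in WT sham. The KO sham libraries stood apart from all others, at about the same level as each other. Exons of Casq1 share 156 bases with Gm17224 on the opposite strand, which had 32 counts over all libraries, against 28867 for Casq1. In KO hearts Casq1 rose after TAC by 1.22 on the log2 scale (SE 0.18, adjusted p = 0.00302). In WT hearts every TAC library lay above sham, but the log2 fold change of 0.33 (SE 0.16, adjusted p = 0.168) did not pass. It was 0.22 (adjusted p = 0.165) without the library labelled WT TAC replicate 1.

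In the sham groups, Casq1 had the largest difference between genotypes among the members with measurable levels. KO sham hearts averaged 40.2 ± 1.12 CPM and WT sham hearts 79.6 ± 0.743 CPM (SD, n = 2 each), a log2 change of -0.99 (SE 0.19, adjusted p = 0.062) that missed the threshold in edgeR. DESeq2 called it, as did edgeR with size factors (RLE), without the filter on low counts, with cardiomyocyte scaling and with the replicate block. So did edgeR with the sham groups fitted alone, a setting that called 1246 of 15876 genes. The limma voom fit and edgeR without mitochondrially encoded genes did not call it. With single libraries left out, edgeR called it only without WT TAC replicate 1 or WT TAC replicate 7. Without the library labelled WT TAC replicate 1, which has the highest Casq1 level of all, the same log2 fold change had an adjusted p of 0.00199, since all groups share an estimate of the spread. Of all genes, 0.126% were called in this comparison, and 0.397% without that library. No other member passed. Pln and Trdn were higher and Casq2 and Slc8a1 lower in both KO sham libraries than in both WT sham libraries, where 26.6% of all genes had non-overlapping groups with KO higher and 26.3% with KO lower.

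The change of Casq1 with TAC was 0.89 larger on the log2 scale in KO than in WT hearts (SE 0.23, unadjusted p = 0.00135, adjusted p = 0.997), so the interaction did not pass. In edgeR 0 of 15876 genes passed in the interaction, and DESeq2 called 6. In edgeR 647 genes had an unadjusted p under 0.05, a smaller share than the 0.05 that tests without any interaction would give. Without the library labelled WT TAC replicate 1, the Casq1 interaction was 1.005 (SE 0.15, adjusted p = 0.036) and 3 genes passed, 0.0189% of those tested. Without KO sham replicate 1 the TAC change of Casq1 in KO hearts no longer passed (adjusted p = 0.138), while its log2 value stayed between 1.18 and 1.28 with each of the 14 libraries left out. Markers of skeletal muscle, which expresses Casq1, were read beside it. Of 10 skeletal muscle markers, Myl1 made up nearly the whole sum, with 168.4 to 319.8 CPM in KO TAC and 276 to 581 CPM in WT TAC, against 143 to 171 CPM in KO sham and 199 to 211 CPM in WT sham. The other 9 summed to 2.64 to 4.55 CPM in KO TAC and 2.53 to 14.05 CPM in WT TAC, against 2.77 to 4.06 CPM in KO sham and 2.30 to 3.04 CPM in WT sham. The fast myosin genes Myh4 in KO sham and Myh1 and Myh2 in WT sham were at 0, while Myh2 had 0.154 and 0.245 CPM in KO sham. In WT TAC replicate 7, with the highest sum of those 9 genes, Tnnt3 alone made up 11.4 CPM of it, and Casq1 was at 88.0 CPM. With both genotypes averaged, Myl1 was higher after TAC (0.72, SE 0.20, adjusted p = 0.0185 in edgeR). It was the 1 gene called of the 4 skeletal muscle markers tested. The part of skeletal muscle RNA in the Casq1 level was not tested.

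Between genotypes after TAC, none of the 10 members passed, beside 9.34% of all genes. All 10 overlapped between KO TAC and WT TAC libraries, while 2.44% of all genes lay wholly higher and 4.08% wholly lower in KO TAC. Pln was nearest to a difference with a measurable level, at 4066 ± 306 CPM in KO TAC (SD, n = 4) and 3416 ± 401 CPM in WT TAC (SD, n = 6), a log2 change of 0.25 (SE 0.10, adjusted p = 0.128). Without the library labelled WT TAC replicate 1 it was 0.29 (SE 0.10, adjusted p = 0.0488) and passed, beside 18.5% of all genes, while scaled to the 14 cardiomyocyte structural genes it was 0.03 (adjusted p = 0.799). Slc8a1 averaged 31.9 ± 14.01 CPM in KO TAC and 42.9 ± 4.08 CPM in WT TAC, a log2 change of -0.43 (SE 0.22, adjusted p = 0.215). Without KO TAC replicate 1 it was -0.79 (SE 0.14, adjusted p = 0.00495), and over the 14 libraries left out in turn it ranged from -0.79 to -0.29. For Casq1 the log2 value was -0.10 (adjusted p = 0.618), and 0.02 (adjusted p = 0.909) without the library labelled WT TAC replicate 1. For Atp2a2 the log2 fold change was 0.12 (SE 0.17, adjusted p = 0.67), for Ryr2 0.03 (SE 0.12), for Casq2 0.01 (SE 0.11), for Cacna1c 0.07 (SE 0.08), for Trdn 0.10 (SE 0.08) and for Jph2 0.20 (SE 0.11). The values were 0.21 for Atp2a2, 0.09 for Ryr2 and 0.08 for Casq2 without the library labelled WT TAC replicate 1, and none of these passed. These small differences also depend on the scaling. Relative to the 14 cardiomyocyte structural genes, which lowers the median of all genes by 0.24, the values of Atp2a2, Ryr2, Casq2, Trdn, Cacna1c and Jph2 turned negative, and Casq1 (-0.32, adjusted p = 0.0406) and Slc8a1 (-0.67, adjusted p = 0.0302) passed as lower. With TMM factors, those 14 genes themselves had a median log2 fold change of 0.24 in KO TAC against WT TAC. In edgeR 2 of them were called higher there, Tnni3 (0.49, adjusted p = 0.0462) and Pgam2 (0.40, adjusted p = 0.043), and 0 lower.

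**Figure D3:**
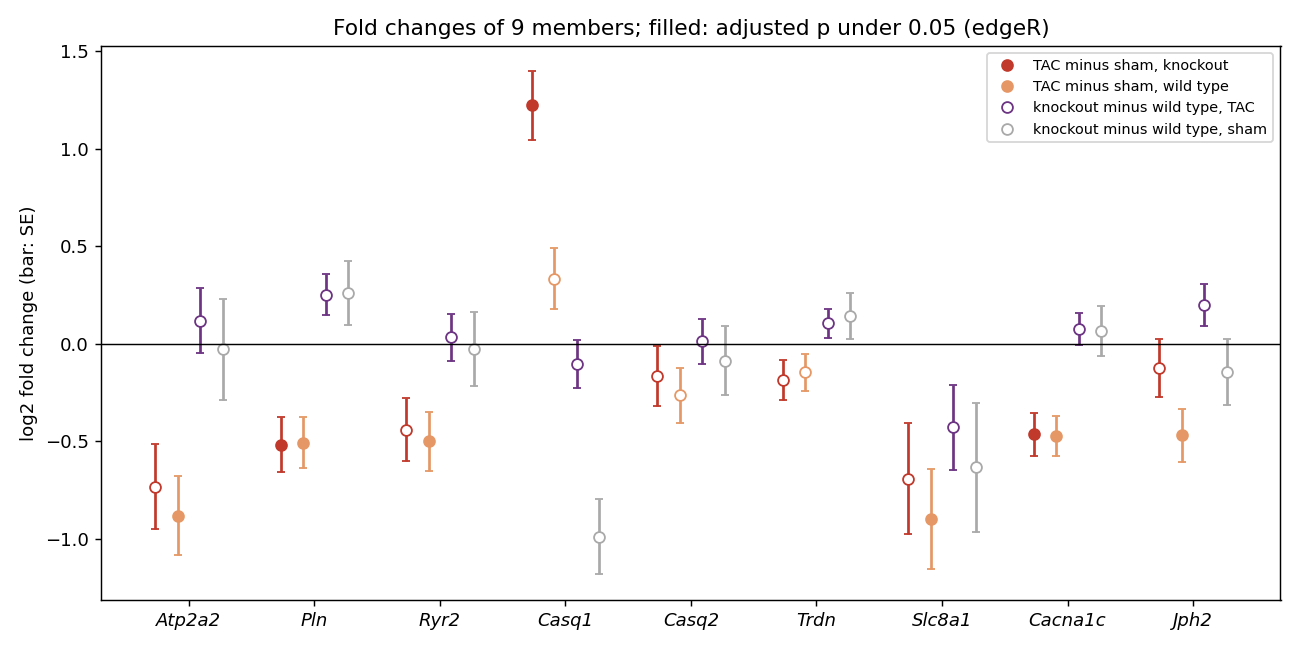
Log2 fold changes of 9 members (Sln left out) with SE, for TAC against sham in KO and WT hearts and for KO against WT after TAC and after sham. Filled points passed an adjusted p of 0.05 in edgeR. The TAC changes of Atp2a2, Pln, Ryr2, Slc8a1 and Cacna1c lie between -0.90 and -0.44 in both genotypes, and Casq1 is the only filled point above 0.

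With both genotypes averaged, 6 members were lower after TAC (Atp2a2, Pln, Ryr2, Slc8a1, Cacna1c and Jph2) and Casq1 was higher, beside 24.2% of all genes called, 11.6% as lower and 12.7% as higher. The log2 fold changes were -0.81 for Atp2a2 (SE 0.15, adjusted p = 0.00169), -0.79 for Slc8a1 (SE 0.19, adjusted p = 0.0113) and -0.51 for Pln (SE 0.10, adjusted p = 0.00185). They were -0.47 for Ryr2 (SE 0.11, adjusted p = 0.00684) and for Cacna1c (SE 0.07, adjusted p = 0.00073), and -0.30 for Jph2 (SE 0.10, adjusted p = 0.0408). Casq1 rose by 0.78 (SE 0.12, adjusted p = 0.000614). The calls of Atp2a2, Pln, Cacna1c and Casq1 held with each of the 14 libraries left out, those of Ryr2 and Slc8a1 with 13 of 14 (lost without KO sham replicate 1) and that of Jph2 with 7 of 14. Within WT hearts alone, none of the 6 falls passed without WT sham replicate 1 or without WT sham replicate 2, when 1 and 0 of all genes passed. The calls of Ryr2 and Slc8a1 in WT hearts also held with only 8 and 6 of the 14 libraries left out in turn. In KO hearts those of Pln and Cacna1c held with 5 and 11 of the 14. Within KO hearts alone no member passed without KO sham replicate 1, when 1 of all genes did. Scaled to the 14 cardiomyocyte structural genes, which raises the median of all genes by 0.14 in WT TAC against WT sham, 2 of the 6 falls in WT hearts passed (Atp2a2 and Pln), and none of the 6 changed sign.

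Ratios within a library do not depend on the scaling. The Casq1 to Casq2 ratio of CPM was 0.138 ± 0.0235 in KO TAC (SD, n = 4), against 0.0518 ± 0.00489 in KO sham (SD, n = 2). It was 0.146 ± 0.0217 in WT TAC (SD, n = 6), against 0.0965 ± 0.00074 in WT sham (SD, n = 2). Every TAC library was above the sham libraries of its genotype, with exact permutation p = 0.0667 in KO hearts and 0.0357 in WT hearts (two-sided), the smallest values these group sizes allow. The Pln to Atp2a2 ratio, brake over pump, was 0.617 to 0.742 in KO TAC, against 0.567 and 0.640 in KO sham, where groups overlapped. In WT TAC it was 0.555 to 0.818, against 0.486 and 0.495 in WT sham, higher in 6 of 6 libraries (exact permutation p = 0.0714). The Slc8a1 to Atp2a2 ratio was 0.00531 ± 0.00149 in KO TAC (SD, n = 4) and 0.0084 ± 0.00245 in WT TAC (SD, n = 6), with overlap (exact permutation p = 0.0333). The Ryr2 to Casq2 ratio was 0.966 to 1.04 in KO TAC, against 1.13 and 1.28 in KO sham, and 0.852 to 1.13 in WT TAC, against 1.12 and 1.20 in WT sham. The KO groups were separate, with the smallest exact permutation p possible there (0.0667), and the WT groups overlapped (exact permutation p = 0.143). The Cacna1c to Ryr2 ratio overlapped between TAC and sham in both genotypes. Over 20 ratio tests none passed after Benjamini-Hochberg adjustment, and the lowest adjusted p was 0.286.

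**Figure D4:**
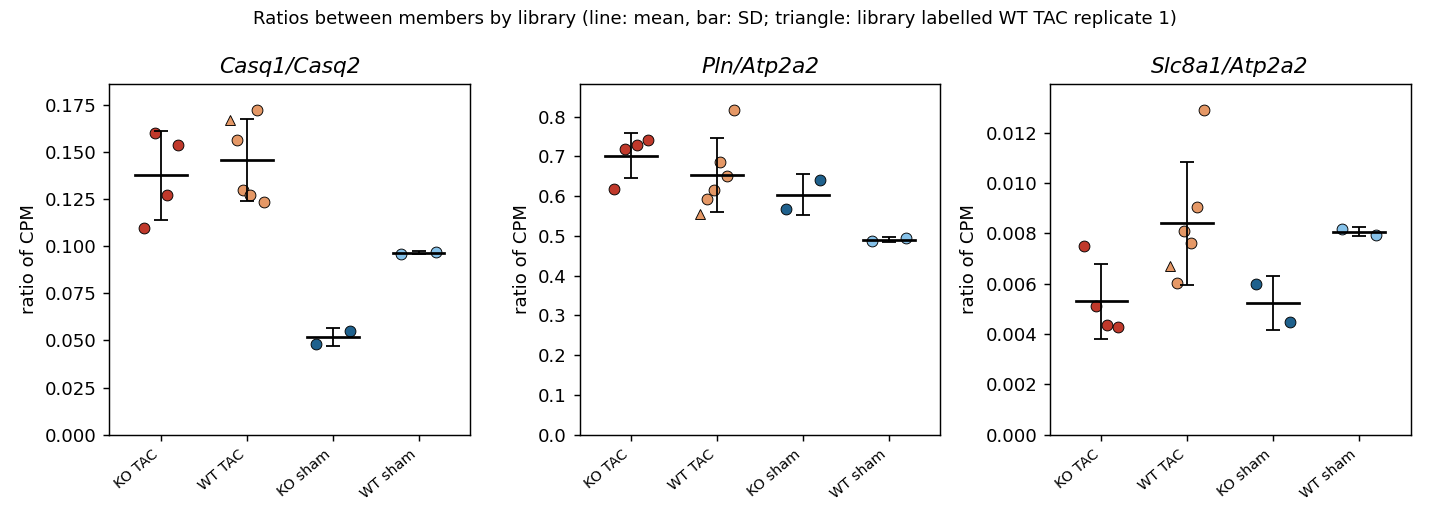
Ratios of CPM within each library for Casq1 over Casq2, Pln over Atp2a2 and Slc8a1 over Atp2a2, by group in the order KO TAC, WT TAC, KO sham, WT sham; lines are means, bars are SD, and the triangle is the library labelled WT TAC replicate 1. The Casq1 to Casq2 ratio is 0.110 or higher in every TAC library and 0.0970 or lower in every sham library.

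Within a group the members tended to be high in the same library. KO TAC replicate 1 had the highest level of 8 of the 10 members in its group (all but Sln and Casq1), and the library labelled WT TAC replicate 1 of 7 of 10. These libraries also had the highest cardiomyocyte marker sum of their groups, at 94550 and 88400 CPM. Their fibroblast marker sums were the highest of KO TAC (6010 CPM) and the lowest of WT TAC (6051 CPM). KO sham replicate 1 was likewise highest for 8 of 10 members in its group. Its cardiomyocyte marker sum was the lower one there, at 92850 CPM against 96340 CPM. WT TAC replicate 7 was lowest for Atp2a2 and Pln and had the lowest cardiomyocyte marker sum (68550 CPM). The part of cell composition in these shifts was not tested. Over the 14 libraries, the genes with a pattern most like Atp2a2 were Cmya5, Fsd2, Fyco1, Fitm2 and Gm30970. Their centred log2(CPM + 0.5) differed from that of Atp2a2 by a root mean square of 0.0779 for Cmya5 to 0.107 for Gm30970, where Atp2a2 itself varied by 0.454. For Casq1, a gene chosen for this comparison after its values were seen, the nearest were Spsb4, Fam167a, Phf19, Peg12 and Frk, at 0.240 for Spsb4 to 0.279 for Frk, where Casq1 varied by 0.470. No gene tracked Casq1 as closely as Cmya5 tracked Atp2a2.

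Other genes of the calcium cycle were taken from 5 lists. Among other pump genes (Atp2a1 and Atp2a3) and regulators of the pump, 0 of 10 tested genes passed in either genotype. The share called over all genes was 4.08% in KO TAC against KO sham and 12.2% in WT TAC against WT sham. The median log2 fold change of the list was 0.01 in KO hearts and -0.17 in WT hearts, beside -0.01 and 0.01 for all genes. The kinase subunit gene Prkaca passed as lower with both genotypes averaged (-0.25, SE 0.09, adjusted p = 0.0476), where 24.2% of all genes were called.

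In the release channel complex and store buffers, 0 of 20 tested genes passed in KO TAC against KO sham, and 3 were higher and 2 lower in WT TAC against WT sham. The shares called over all genes were 4.08% and 12.2%. Pde4d, a phosphodiesterase bound to the channel, averaged 5.72 ± 0.919 CPM in KO TAC and 6.26 ± 1.14 CPM in WT TAC, against 8.98 ± 1.76 CPM in KO sham and 14.3 ± 0.109 CPM in WT sham. Its log2 fold change was -0.65 (SE 0.20, adjusted p = 0.0726) in KO hearts and -1.19 (SE 0.17, adjusted p = 0.0042) in WT hearts. Fkbp1a, which encodes an immunophilin that binds ryanodine receptors, rose by 0.40 (SE 0.10, adjusted p = 0.0239) in WT hearts, and Calm2, a calmodulin gene, by 0.40 (SE 0.11, adjusted p = 0.0287). The remaining pair, named after their values were seen, were the histidine-rich calcium-binding protein gene Hrc (-0.77, adjusted p = 0.0431) and the sorcin gene Sri (0.34, adjusted p = 0.0422). Between genotypes after TAC, Ryr3, a ryanodine receptor of low level in heart, averaged 2.33 ± 0.242 CPM in KO TAC (SD, n = 4) and 8.68 ± 4.05 CPM in WT TAC (SD, n = 6). Its log2 fold change was -1.91 (SE 0.34, adjusted p = 0.00653). Itpr3, an inositol trisphosphate receptor gene, was also lower in KO TAC (-0.52, SE 0.13, adjusted p = 0.0258).

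Among genes of the junction and the T tubule, 1 of 11 tested was lower in KO TAC against KO sham, and 1 was higher and 2 were lower in WT TAC against WT sham. The shares called over all genes were 4.08% and 12.2%. Mtm1, a lipid phosphatase gene of the tubule system, fell in KO hearts (-0.52, SE 0.14, adjusted p = 0.0479). Bin1, which shapes T tubules, rose in WT hearts (0.55, SE 0.14, adjusted p = 0.0222). Cmya5 (-0.85, SE 0.20, adjusted p = 0.0194) and the adaptor gene Ank2 (-0.52, SE 0.14, adjusted p = 0.0297) fell there. Lrrc10, a cardiac leucine-rich repeat gene, averaged 154 ± 23.9 CPM in KO TAC and 230.3 ± 46.0 CPM in WT TAC, a log2 change of -0.58 (SE 0.14, adjusted p = 0.0204).

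Of 23 tested genes of L-type channel subunits and surface transport, 2 were higher and 1 lower in KO TAC against KO sham, and 2 were higher and 2 lower in WT TAC against WT sham. The shares called over all genes were 4.08% and 12.2%. Both genotypes shared the channel subunit genes Cacnb3 and Cacnb2. Cacnb3 averaged 10.4 ± 1.22 CPM in KO TAC and 10.8 ± 2.00 CPM in WT TAC, against 6.22 ± 0.211 CPM in KO sham and 6.67 ± 1.25 CPM in WT sham, with log2 fold changes of 0.74 (adjusted p = 0.0482) in KO and 0.70 (adjusted p = 0.0274) in WT hearts. Cacnb2 averaged 44.3 ± 4.32 CPM in KO TAC and 40.6 ± 8.26 CPM in WT TAC, against 74.7 ± 15.3 CPM in KO sham and 61.7 ± 1.27 CPM in WT sham, with log2 fold changes of -0.75 (adjusted p = 0.0269) in KO and -0.60 (adjusted p = 0.0301) in WT hearts. Slc8a2, another exchanger gene, rose in KO hearts (1.10, SE 0.29, adjusted p = 0.0438), at 2.38 ± 0.410 CPM in KO TAC against 1.11 ± 0.179 CPM in KO sham. Cacna1s, the channel pore gene of skeletal muscle, fell in WT hearts (-0.90, SE 0.24, adjusted p = 0.0309), as Gem, a channel regulator named after its values were seen, rose (0.56, adjusted p = 0.0455). Between genotypes after TAC, the T-type channel gene Cacna1h (0.91, SE 0.25, adjusted p = 0.0377) and the sodium pump regulator gene Fxyd1 (0.31, SE 0.09, adjusted p = 0.0388) were higher in KO TAC, and the subunit gene Cacnb1 was lower (-0.51, SE 0.15, adjusted p = 0.0495). In KO sham against WT sham, none of the 74 tested genes of the 5 lists passed, beside 0.126% of all genes.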

How the data were processed

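The authors deposited raw whole-number read counts per gene ID, without normalization, for 14 libraries of mouse ventricle. Per the submitters' processing notes, FastQC, HISAT2 2.1.0, featureCounts and edgeR were used with the GRCm38 genome. The role and settings of each tool, the annotation release and any use of strand in counting were not given in the sources used here. The GENCODE M21 annotation of GRCm38, which held 54409 of the 54532 gene IDs, gave coordinates and exon lengths.

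From the deposited counts, edgeR 4.0.16 (R 4.3.3) was run with filterByExpr on the group, TMM factors, 4 group means over all 14 libraries and robust quasi-likelihood F tests. All 10 members were among the 15876 genes kept. P-values were adjusted by Benjamini-Hochberg over these genes for each of 6 comparisons, with a threshold of 0.05. SE is the size of the log2 fold change over the square root of F. CPM used TMM factors. Ratios of CPM were compared by exact permutation of libraries, two-sided, over 20 tests. The steps were tested on simulated counts with 200 changed genes.

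Alternatives were size factors (RLE), no filter, DESeq2 1.42.0, limma 3.58.1 voom, only the groups compared, a replicate block, no mitochondrially encoded genes, scaling to 14 cardiomyocyte structural genes, and each library left out. Counting intervals and floors of 3 counts cover counting error only. No 2 libraries of a group agreed within sampling noise.

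Named genes were the 10 members, up to 3 genes with the smallest p among those past the threshold from each of 5 lists (80 genes) in each comparison, Ccl24, and the 5 genes nearest in pattern to Atp2a2. Such genes were not given for Sln, nor its ratio to Atp2a2, because 2 libraries held 0 counts of it. The members and lists were chosen with earlier results of these data known. The library labelled WT TAC replicate 1 stayed in its labelled group. The list genes Ryr1, Jph3 and Slc8a3 were below the filter, and Strit1, Arln and Erln were not analysed here. The result of 1 of the 5 lists is not reported here.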

Additional observations from a re-analysis of the deposited data

Results flagged for a closer look

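Without the library labelled WT TAC replicate 1, the change of Casq1 with TAC differed between the genotypes, with an interaction of 1.005 on the log2 scale (SE 0.15, adjusted p = 0.036 in edgeR). With that library it was 0.89 and did not pass.

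In 3 of 20 combinations of a member with KO TAC or WT TAC, 1 library stood apart from the rest of its group. These combinations share the same libraries, so their number cannot be set against a rate expected by chance. The gap of that library to the nearest one, over the whole range of the group, was 0.864 for Casq2 in KO TAC replicate 1 (875.3 CPM, limit 0.829 for 4 libraries). It was 0.845 for Slc8a1 in the same library (52.6 CPM). For Jph2 in the library labelled WT TAC replicate 1 (527 CPM) it was 0.678, against a limit of 0.625 for 6 libraries.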

How the results depend on the processing

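The count of members lower in WT TAC against WT sham was 6, and it was 0 with the replicate block, 2 with cardiomyocyte scaling and 3 with only the groups compared. In KO TAC against KO sham it was 2, and 0 with the replicate block, under which Casq1 stayed higher. Replicate numbers 3, 5, 6 and 7 each belong to 1 library, which its own block term fits fully. The block fit therefore drew its comparisons only from libraries numbered 1, 2 and 4. In KO TAC against WT TAC, DESeq2 called 1 member higher (Pln) and cardiomyocyte scaling called 2 lower, beside 0 and 0. In KO sham against WT sham, Casq1 was the 1 member called lower with RLE scaling, no filter on low counts, the replicate block, cardiomyocyte scaling, only the groups compared and DESeq2. Deviations of same-numbered libraries correlated at -0.215 to 0.0603. Pairs with different numbers were not compared, so whether replicate numbers pair the libraries was not settled. Log2 fold changes of KO TAC against WT TAC that turned negative with cardiomyocyte scaling were -0.096 for Atp2a2, -0.197 for Ryr2, -0.218 for Casq2, -0.130 for Trdn, -0.155 for Cacna1c and -0.027 for Jph2, and -0.0040 for Atp2a2 with the replicate block. That scaling also moved the calls of all genes in this comparison to 222 higher and 4417 lower, beside 589 and 894, and in WT TAC against WT sham to 920 higher and 373 lower, beside 1009 and 921. Over all genes, the called total in WT TAC against WT sham (1930) was 22 with the replicate block and 705 with only the groups compared. In KO TAC against KO sham (648) it was 367 with the block, 1460 with only the groups compared and 1342 in DESeq2. In KO TAC against WT TAC (1483) these settings gave 45, 752 and 2351, in KO sham against WT sham (20) they gave 13, 1246 and 147, with 44 without the filter, and with genotypes averaged (3848) the block gave 1478. The cause was not tested.

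With each of 14 libraries left out in turn, a lone sham library was assumed to vary like the other groups. Members called lower ranged from 0 to 6 in WT TAC against WT sham (fewest without either WT sham library, and 3 without WT TAC replicate 4), from 0 to 4 in KO TAC against KO sham (0 without KO sham replicate 1, KO TAC replicate 2 or KO TAC replicate 5; 1 without KO sham replicate 2, KO TAC replicate 4, either WT sham library, WT TAC replicate 3 or WT TAC replicate 4; 4 without KO TAC replicate 1) and from 3 to 8 with genotypes averaged (3 without KO sham replicate 1). Members called higher in KO TAC against KO sham ranged from 0 (without KO sham replicate 1) to 1. In KO TAC against WT TAC, 0 to 1 were higher (Pln, without WT TAC replicate 1) and 0 to 1 lower (Slc8a1, without KO TAC replicate 1). In KO sham against WT sham 0 to 1 were lower (Casq1, without WT TAC replicate 1 or 7), and in the interaction 0 to 1 higher (Casq1, without WT TAC replicate 1). Log2 fold changes of KO TAC against WT TAC ranged from -0.155 to 0.017 for Casq1, -0.128 to 0.078 for Casq2 and -0.090 to 0.090 for Ryr2. Log2 differences of ratios ranged from 0.533 to 0.629 for Casq1 to Casq2 in WT TAC against WT sham, 0.333 to 0.445 for Pln to Atp2a2 there, and -0.831 to -0.521 for Slc8a1 to Atp2a2 in KO TAC against WT TAC.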
